A study of Homo sapiens with 3 samples.

Results

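The 10 mRNAs described here belong to the Hippo pathway and to the genes that its effector YAP switches on. They are CYR61, CTGF, ANKRD1, AMOTL2, YAP1, WWTR1, TEAD1, LATS1, LATS2 and NF2, taken by gene name from the 57820 genes that both deposited tables list, under the older symbols CYR61 (now CCN1) and CTGF (now CCN2). They were named with the Flag over IgG ratios of these libraries already known, so their ratios are a description and no test is attached to them. RNA was immunoprecipitated from the established human kidney cancer line ACHN, in which the cells stably overexpressed MEX3A-Flag, an RNA-binding protein with a Flag tag. Cells were crosslinked with formaldehyde, complexes were taken down with the anti-Flag antibody or, as the background of the method, with IgG, and mRNA was selected on oligo(dT) beads. Both precipitates came from cells that carried the transgene, and the labels do not say whether the line was a clone. Each group held 1 library, and input RNA was not used, so a ratio compares the precipitates with each other and not with the RNA content of the cells.

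The Hippo pathway is a kinase cascade that restrains growth. Merlin, the product of NF2, helps to activate the LATS1 and LATS2 kinases, which phosphorylate the coactivators YAP (YAP1) and TAZ (WWTR1) and keep them out of the nucleus. When the kinases are inactive, YAP and TAZ enter the nucleus, bind TEAD transcription factors and raise genes such as CYR61, CTGF, ANKRD1 and AMOTL2. LATS2 and AMOTL2 are themselves YAP targets that feed back on the pathway, and loss of NF2 is known in some kidney tumours.

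Total counts were 5498124 for Flag and 3412864 for IgG. Mitochondrially encoded RNAs took 33% of the Flag counts and 8.93% of the IgG counts, so levels in CPM (counts per 1000000 counts of the library) depend on what else filled each library. With these RNAs and the 10 most abundant genes left out of both totals, Flag over IgG ratios fell, that of CYR61 from 16.0 to 13.6. Leaving out the mitochondrial RNAs alone would raise the ratios, since their share was larger with Flag. The fall therefore reflects the other abundant genes left out, which took a larger share of the IgG counts. MEX3A mRNA had 103 Flag and 5 IgG counts. Of 13 renal epithelial markers, 12 were detected and CDH6 had 0 counts in both libraries, and the list summed to 1755 CPM for Flag and 1425 CPM for IgG. Of 12 markers of blood, endothelium, liver, heart and glia, 10 had 0 counts in both libraries, and the list summed to 4.73 CPM for Flag and 2.05 CPM for IgG.

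A gene entered the comparison with at least 20 counts over both libraries and was called enriched when the exact 95% interval of its Flag over IgG ratio of CPM lay wholly above 2, or depleted when it lay wholly below 0.5. These intervals, and those of single levels, cover counting error only, since reads copied by PCR are not independent molecules, and with 1 library per group no replicate can check a difference. Of the 10 mRNAs, 9 entered, 6 were enriched and 0 depleted, and all 10 had whole counts in both tables. Among all 10811 genes that entered, 28.7% were enriched and 1.32% depleted. The median log2 ratio of the 9 was 2.54, a 5.83-fold ratio, and that of all entering genes was 0.95, a 1.93-fold ratio. Because the 10 were named from the same comparison, nothing is read from these shares. TMM scaling, which assumes that most genes do not differ, shifted every log2 ratio by -0.90. Under it CYR61, CTGF, YAP1 and LATS2 were still enriched (9.94% of all genes were enriched then and 7.53% depleted), WWTR1 and LATS1 were no longer called, and AMOTL2 turned from above to below 1.

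**Figure D1:**
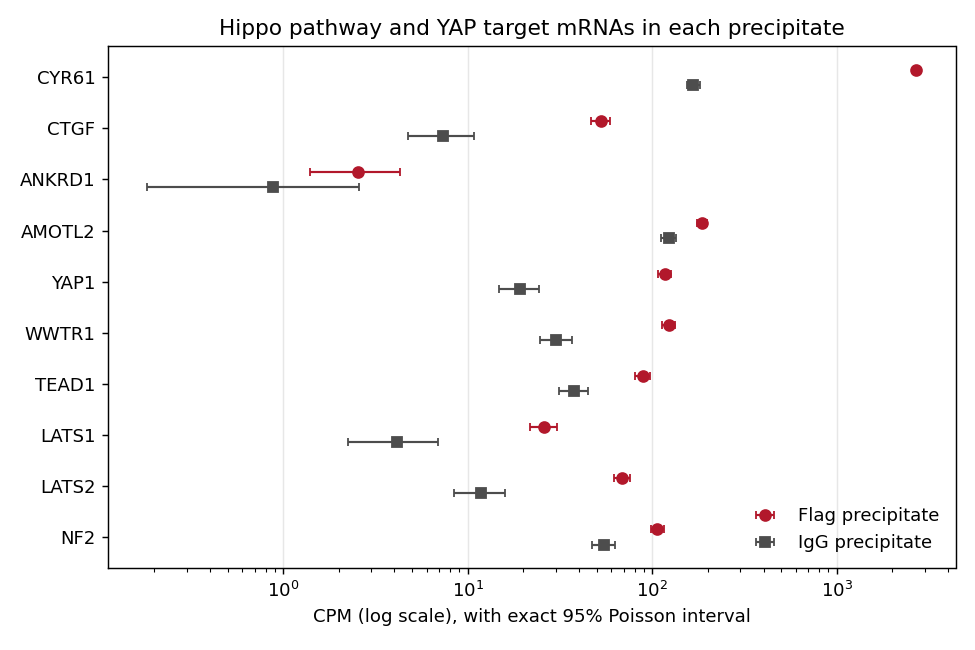
Level of each mRNA in CPM on a log scale, with circles for the Flag library, squares for the IgG library and bars for the exact 95% Poisson interval of each count. CYR61 stands apart in both libraries, at 2672 CPM (Flag) and 167 CPM (IgG), and the bars of ANKRD1 overlap.

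CYR61 (ENSG00000142871), which encodes a secreted matricellular protein of the CCN family, was by far the most abundant of the 10. It had 14689 counts in the Flag library, or 2672 CPM (2629 to 2715), against 569 counts in the IgG library, or 167 CPM (153 to 181). Its ratio was 16.0 (14.7 to 17.5), above 97.97% of the entering genes. By count it was the mRNA of rank 27 among all genes of the Flag library and of rank 239 in the IgG library. It made up 77.7% of the counts of the 10 mRNAs on the Flag side and 36.7% on the IgG side, so a sum over the 10 is mostly CYR61 after Flag precipitation. Without it the others summed to 768 CPM for Flag and 288 CPM for IgG.

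CTGF (ENSG00000118523), a second secreted CCN protein and a common readout of YAP activity, was far less abundant. It had 288 Flag counts, or 52.4 CPM (46.5 to 58.8), against 25 IgG counts, or 7.33 CPM (4.74 to 10.8). The ratio was 7.15 (4.75 to 11.2), so its whole interval lay below that of CYR61. Within a library the scaling cancels: CYR61 had 51.0 counts for each CTGF count with Flag and 22.8 with IgG, a ratio of ratios of 2.24 (1.41 to 3.41). Both were enriched. This ratio of ratios, like those of the other pairs below, describes genes named for their ratios and is no test.

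ANKRD1 (ENSG00000148677), which encodes an ankyrin repeat protein of muscle and a YAP target, had 14 counts in the Flag library, or 2.55 CPM, against 3 counts in the IgG library, or 0.879 CPM. It did not enter the comparison, and its ratio of 2.90 had an interval of 0.808 to 15.7 that holds both 1 and the ratio of CTGF. AMOTL2 (ENSG00000114019), an angiomotin-like scaffold that holds YAP in the cytoplasm and is raised by it, was abundant in both precipitates, with 1016 counts in the Flag library, or 185 CPM, against 418 counts in the IgG library, or 122 CPM. Its ratio of 1.51 (1.35 to 1.69) was not called and stood under the median gene. With TMM scaling it was 0.809 (0.721 to 0.909), and with the authors' TPM, with 0.1 added to both values here and below, 1.21. Of these 4 target genes, those that entered thus ranged from CYR61 above nearly all genes to AMOTL2 at percentile 39.54. ANKRD1 had too few counts to be placed among them.

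Promoters of CTGF, LATS2 and AMOTL2 are shown because the sequence GGAATG, or CATTCC on the other strand, is the core that TEAD factors are known to bind. The assay measured RNA in a precipitate and not promoter activity. The windows are RefSeq sequences of GRCh38.p14, from position -250 to 50 bases after the gene's start, 5′ to 3′ on the gene's strand (the minus strand for all 3), with the motif in capitals. The CTGF window is chr6:131951323-131951622, the LATS2 window chr13:21061537-21061836 and the AMOTL2 window with the motif chr3:134374398-134374697.
CTGF: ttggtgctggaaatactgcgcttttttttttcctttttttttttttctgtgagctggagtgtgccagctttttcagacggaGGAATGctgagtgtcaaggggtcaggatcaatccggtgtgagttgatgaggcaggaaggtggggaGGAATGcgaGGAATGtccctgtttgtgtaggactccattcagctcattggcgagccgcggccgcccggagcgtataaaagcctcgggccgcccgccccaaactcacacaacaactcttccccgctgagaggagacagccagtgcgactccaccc
LATS2: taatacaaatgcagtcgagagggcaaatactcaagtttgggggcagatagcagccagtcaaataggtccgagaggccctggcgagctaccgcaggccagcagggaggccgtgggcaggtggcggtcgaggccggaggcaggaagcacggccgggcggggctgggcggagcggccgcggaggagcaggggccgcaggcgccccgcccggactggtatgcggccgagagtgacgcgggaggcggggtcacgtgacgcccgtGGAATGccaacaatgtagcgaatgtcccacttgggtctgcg
AMOTL2: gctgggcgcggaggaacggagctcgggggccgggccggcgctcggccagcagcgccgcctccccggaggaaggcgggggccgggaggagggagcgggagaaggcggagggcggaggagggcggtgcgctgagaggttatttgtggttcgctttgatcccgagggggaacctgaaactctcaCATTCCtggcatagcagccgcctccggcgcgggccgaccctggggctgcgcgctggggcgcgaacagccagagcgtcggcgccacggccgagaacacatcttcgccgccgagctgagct

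CTGF held the motif 3 times, at positions -169, -104 and -95 from the gene's start. Of all 35116 windows of the same length in the table, 14.0% held the motif on either strand at least once and 0.125% held it 3 times or more. LATS2 held it once, at position 9 after the start, and AMOTL2 once, as CATTCC at -69, in 1 of its 2 windows. ANKRD1 held it at -220 and -128 and YAP1 at -162. The table held windows for 8 of the 10 genes and none for CYR61 and TEAD1. Of the 8, 5 had the motif in any window, against 16.7% of the 27305 genes in the table. Several of the 8 are known YAP targets, so nothing is read from this difference. No motif was found in the windows of WWTR1, LATS1 and NF2, which says only that these letters are absent there. Enriched CTGF, LATS2 and YAP1 and uncalled AMOTL2 all had the motif, and enriched WWTR1 and LATS1 and uncalled NF2 had none. ANKRD1, which did not enter the comparison, had it too. Whether motif and call go together was not tested.

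YAP1 (ENSG00000137693), the effector itself, had 641 Flag counts, or 117 CPM (108 to 126), against 65 IgG counts, or 19.0 CPM (14.7 to 24.3). The ratio was 6.12 (4.74 to 8.03). WWTR1 (ENSG00000018408), which encodes the paralog TAZ, had 673 Flag counts, or 122 CPM (113 to 132), against 103 IgG counts, or 30.2 CPM (24.6 to 36.6), a ratio of 4.06 (3.29 to 5.04). In CPM, which does not allow for transcript length, the paralogs were nearly level in the Flag library, whereas WWTR1 was ahead in the IgG library. YAP1 made up 48.8% of the counts of the pair with Flag and 38.7% with IgG, a ratio of ratios of 1.51 (1.07 to 2.13). By TPM, YAP1 made up 35.9% of the pair with Flag and 24.9% with IgG, so per length WWTR1 was ahead in both libraries. With the authors' TPM the Flag over IgG ratios were smaller, at 3.66 for YAP1 and 2.18 for WWTR1, with the ratio of YAP1 still the higher.

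TEAD1 (ENSG00000187079), the DNA-binding partner of YAP, had 487 Flag counts, or 88.6 CPM, against 128 IgG counts, or 37.5 CPM. Its ratio of 2.36 (1.94 to 2.89) was not called, since the interval reached just below 2, though with TPM it was 3.36. The TEAD family was uneven. TEAD3 was enriched, with 90 Flag and 16 IgG counts (3.49, 2.04 to 6.37), but was not called with TMM scaling (1.87, 1.09 to 3.41), and its TPM ratio was 1.33. TEAD2, with 122 Flag and 27 IgG counts, was not called at 2.81 (1.84 to 4.43). TEAD4, with 110 Flag and 79 IgG counts, had a ratio of 0.864 (0.641 to 1.17). TEAD4 accordingly made up 13.6% of the family's counts with Flag and 31.6% with IgG, and TEAD1 60.2% with Flag and 51.2% with IgG. Counts do not allow for transcript length. By TPM, TEAD4 made up 24.8% with Flag and 48.5% with IgG, and TEAD1 49.4% with Flag and 28% with IgG. TEAD1 exceeded TEAD4 by a ratio of ratios of 2.73 (1.90 to 3.93), while the intervals against TEAD2 (0.842, 0.510 to 1.35) and TEAD3 (0.677, 0.358 to 1.21) held 1.

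**Figure D2:**
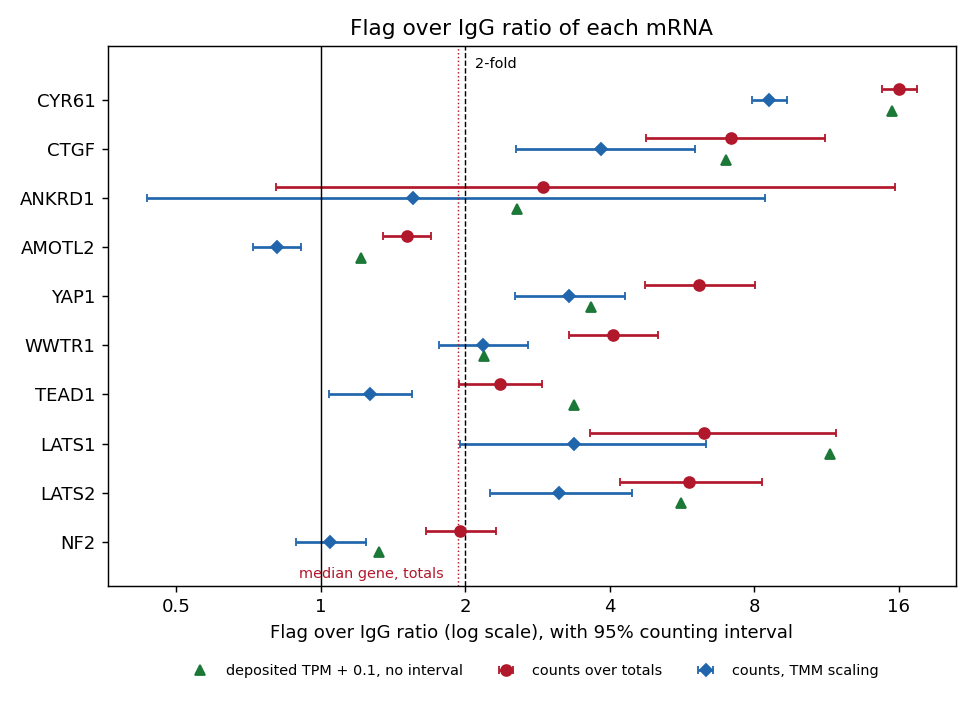
Flag over IgG ratio of each mRNA on a log scale, as counts over library totals (circles), counts with TMM scaling (diamonds) and the authors' TPM with 0.1 added (triangles, no interval). Bars are 95% counting intervals, the solid line marks 1, the dashed line 2 and the dotted line the median gene at 1.93. CYR61 lies at 16.0 with totals and 8.59 with TMM scaling, and the LATS1 and TEAD1 triangles lie to the right of their circles.

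LATS2 (ENSG00000150457), a kinase that phosphorylates YAP and is raised by it, had 376 Flag counts, or 68.4 CPM (61.6 to 75.7), against 40 IgG counts, or 11.7 CPM (8.37 to 16.0). The ratio was 5.83 (4.21 to 8.30). LATS1 (ENSG00000131023), the paralog, had 142 Flag counts, or 25.8 CPM (21.8 to 30.4), against 14 IgG counts, or 4.10 CPM (2.24 to 6.88), and the ratio was 6.30 (3.63 to 11.8). Both kinase mRNAs were enriched with library totals. Their ratio of ratios was 1.08 (0.554 to 2.22), an interval too wide to show that the paralogs were alike, and with plain TPM it was 2.18.

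NF2 (ENSG00000186575), which encodes Merlin, had 585 Flag counts, or 106 CPM, against 186 IgG counts, or 54.5 CPM. Its ratio of 1.95 (1.65 to 2.32) was close to the median gene at 1.93 and was not called. NF2 and AMOTL2 encode the pair of membrane-associated scaffolds among the 10, and theirs were the lowest ratios of the 9 that entered. The other angiomotins were not called either, AMOT with 146 Flag and 53 IgG counts (1.71, 1.24 to 2.39) and AMOTL1 with 353 Flag and 90 IgG counts (2.43, 1.93 to 3.10). AMOTL2 had a lower ratio than AMOTL1 by counts (ratio of ratios 0.620, 0.473 to 0.806), but a higher one by plain TPM (1.32), and its interval against AMOT held 1 (0.882, 0.619 to 1.24). Of the 8 pairs compared, the interval left out 1 for 4, and these intervals were not adjusted for the number of pairs.

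**Figure D3:**
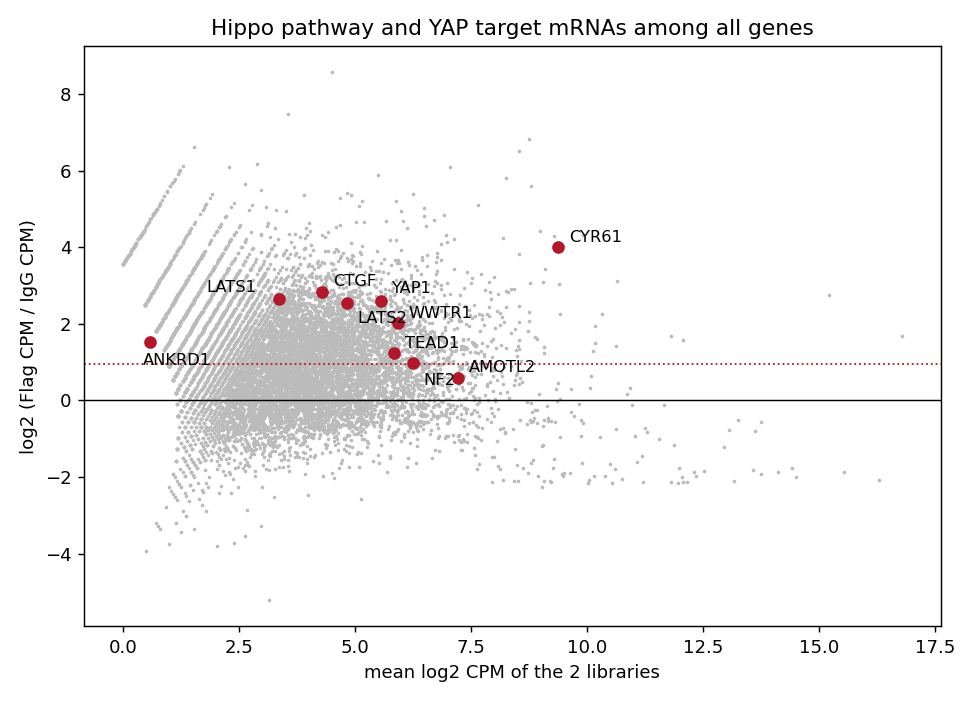
Log2 ratio of Flag to IgG CPM against the mean log2 CPM of both libraries for every gene that entered with a count in each (grey points), with the 10 mRNAs in red. The dotted line marks the median gene at 0.95, with CYR61 at 4.00 above it and AMOTL2 at 0.59 below it.

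Per length, in the authors' TPM, the order of the 10 mRNAs was nearly alike in both precipitates. In the Flag library CYR61 came first at 1281 TPM, followed by AMOTL2 at 59.7, WWTR1 at 53.9, TEAD1 at 36.1 and YAP1 at 30.2 TPM. NF2 and CTGF were next at 24.4 and 24.1 TPM, then LATS2 at 12.7, LATS1 at 10.9 and ANKRD1 at 1.41 TPM. In the IgG library the levels were 82.8 TPM for CYR61, 49.2 for AMOTL2, 24.6 for WWTR1, 18.4 for NF2, 10.7 for TEAD1 and 8.18 for YAP1. CTGF followed at 3.37, LATS2 at 2.18, LATS1 at 0.86 and ANKRD1 at 0.49 TPM. NF2 alone changed place, standing behind TEAD1 and YAP1 with Flag and ahead of them with IgG. The TPM carry no error, so neighbours such as NF2 and CTGF in the Flag library cannot be put in order.

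The TPM and count ratios part where the estimated isoform mix differs between the libraries. The tables give for each gene a mean transcript length, weighted by the estimated abundance of its transcripts. CTGF and ANKRD1, with 1 annotated transcript each, and LATS2 had the same length in both libraries, and the deposited TPM of CTGF gave a plain ratio of 7.15, the same as its count ratio. The YAP1 length was 4008 bases in the Flag and 2493 bases in the IgG library, that of WWTR1 2437 and 1403 bases, that of NF2 4511 and 3124 bases, and that of AMOTL2 3254 and 2654 bases. These 4 mRNAs were longer on the Flag side by 60.8%, 73.7%, 44.4% and 22.6%.

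LATS1 and TEAD1 went the other way. The LATS1 length was 2526 bases in the Flag and 4885 bases in the IgG library, a change of -48.3%, and that of TEAD1 2614 and 3664 bases, a change of -28.6%. The LATS1 estimate in the IgG library rests on 14 counts. The LATS1 ratio was 6.30 by counts and 11.5 by TPM, a unit that divides the reads by this length less a correction for fragment size. Of the 8 mRNAs with several transcripts, 4 were over 10% longer and 2 over 10% shorter in the Flag library. Over all 9929 genes with several transcripts and counts in both libraries, 38.9% were longer and 26.1% shorter by that measure, with a median length ratio of 1.015, so such differences were common. Past 10% in either direction were 67.6% of the genes under 100 IgG counts and 52.4% of the others. The tables give no error for a length, and no isoform is named here.

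**Figure D4:**
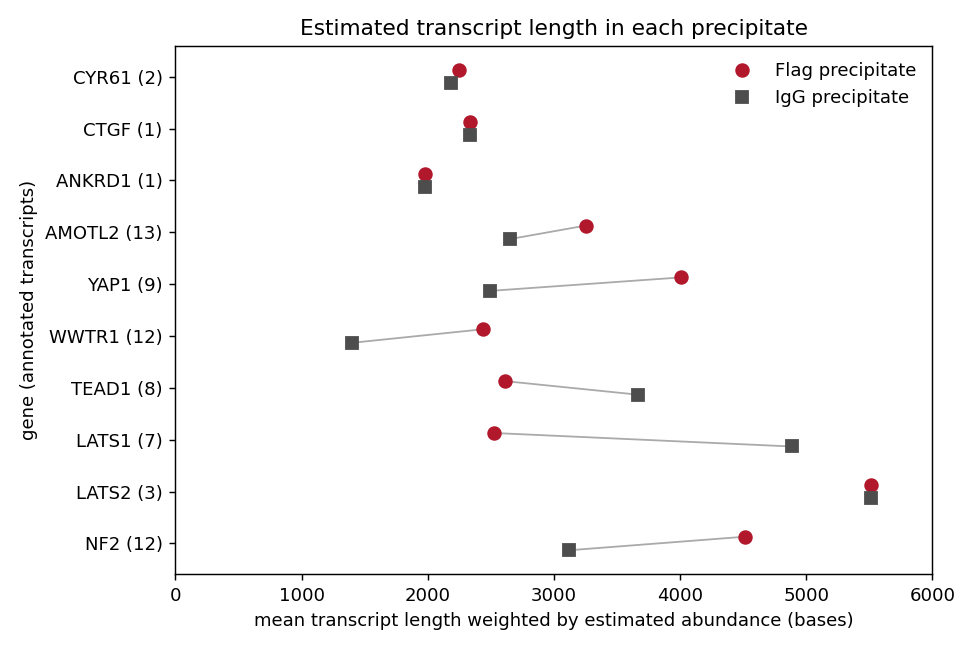
Mean transcript length in bases of each mRNA, weighted by estimated transcript abundance, with circles for the Flag and squares for the IgG library and the number of annotated transcripts in brackets. YAP1, WWTR1, NF2 and AMOTL2 are longer in the Flag library, LATS1 and TEAD1 shorter, and CTGF, ANKRD1 and LATS2 the same.

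Lists of other pathway components, further YAP targets and further CCN genes, 80 genes in all, were set beside these values. The lists, like the 10 mRNAs, were chosen with earlier results of these data known. Nothing is therefore read from their shares, here or below. Of these 66 entered, and 28 were enriched and 0 depleted, which is 42.4% of those that entered, against 28.7% of all genes. Their median log2 ratio was 1.32, against 0.95 for all genes. The components alone had 19 enriched and 0 depleted of 50 that entered, or 38.0%. With TMM scaling 9 of the 66 were enriched, which is 13.6% against 9.94% of all genes, and 3, SCRIB, CSNK1E and STK25, were depleted, which is 4.55% against 7.53%.

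Of the lists, the core kinase cassette had the highest median. Of its 5 further members, 4 were enriched (80.0%, against 28.7% of all genes), with a median log2 ratio of 2.82. With TMM scaling 3 were enriched (60.0%, against 9.94% of all genes). SAV1, the scaffold that joins the upstream MST kinases to LATS, had 250 Flag and 11 IgG counts and a ratio of 14.1 (7.75 to 28.6). MOB1B and MOB1A encode the coactivators of LATS. MOB1B had 273 Flag and 22 IgG counts (7.70, 4.98 to 12.5), and MOB1A had 734 Flag and 116 IgG counts (3.93, 3.22 to 4.82) and lost its call with TMM scaling. Of the MST kinases, STK4 (MST1) was enriched with 523 Flag and 46 IgG counts (7.06, 5.22 to 9.76), whereas STK3 (MST2), with 38 Flag and 16 IgG counts, had a ratio of 1.47 (0.803 to 2.83).

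Upstream kinases, scaffolds and polarity proteins had 9 enriched and 0 depleted of the 28 that entered besides NF2 and AMOTL2, with a median log2 ratio of 1.17. Their share of 32.1% was near the 28.7% of all genes. TAOK1, a kinase that activates the MST kinases, had 1557 Flag and 203 IgG counts (4.76, 4.11 to 5.54). WWC2, a relative of the scaffold KIBRA, had 993 Flag and 128 IgG counts (4.82, 4.00 to 5.84). FRMD6, a membrane protein of the Merlin type, had a ratio of 3.18 (2.71 to 3.74), and AJUBA, which inhibits LATS, had 859 Flag and 178 IgG counts, with an interval of 2.55 to 3.54, and both lost their calls with TMM scaling. At the low end SCRIB, a polarity scaffold, had 392 Flag and 372 IgG counts (0.654, 0.566 to 0.756) and RASSF1, a partner of the MST kinases, 17 Flag and 16 IgG counts (0.660, 0.313 to 1.39). The low-ratio scaffolds NF2 and AMOTL2 thus lay within the range of this group.

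STRIPAK, a phosphatase complex that switches the MST kinases off, had 5 enriched and 0 depleted of 13 that entered, with a median log2 ratio of 1.43. That is 38.5% enriched, against 28.7% of all genes. With TMM scaling 2 were enriched (15.4%, against 9.94% of all genes) and 1 was depleted (7.69%, against 7.53%). CTTNBP2NL, a cortactin-binding subunit, had 1752 Flag and 96 IgG counts (11.3, 9.22 to 14.1), and SIKE1 had 424 Flag and 28 IgG counts (9.40, 6.41 to 14.3). The kinase STK24 had a ratio of 4.67 (3.55 to 6.24) and FGFR1OP2 one of 3.81 (2.44 to 6.20), both without a call under TMM scaling. STK25 (0.681, 0.535 to 0.866) and STRN4 (0.811, 0.665 to 0.991) were the lowest. Besides YAP1, WWTR1 and TEAD1, the effectors and DNA-binding partners had 1 enriched of the 4 that entered, TEAD3, and 0 with TMM scaling. Of all genes that entered, 28.7% were enriched, and 9.94% with TMM scaling. VGLL4, which competes with YAP for TEAD, had a ratio of 1.30 (0.937 to 1.81), and VGLL1, VGLL2 and VGLL3 had no counts (0) in either library, where a limit of 3 counts corresponds to 0.546 CPM with Flag and 0.879 CPM with IgG.

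**Figure D5:**
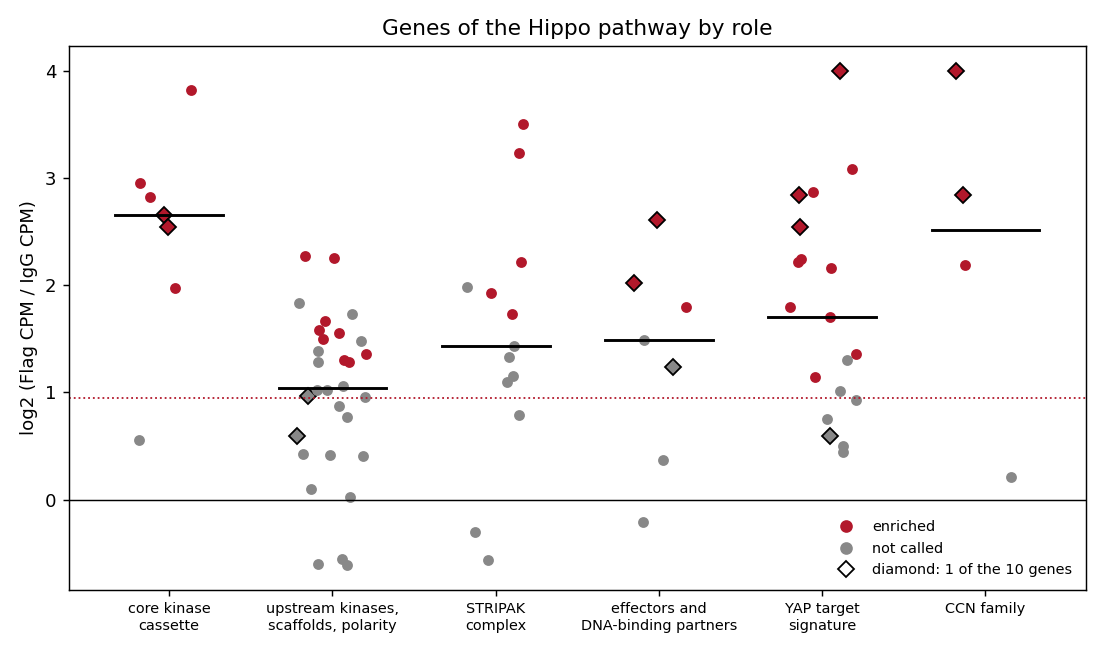
Log2 ratio of Flag to IgG CPM of each gene that entered, by role in the pathway, with red for enriched, grey for not called and diamonds for the 10 mRNAs. The short bars are medians of each list with those mRNAs included, 2.65 for the core kinase cassette and 1.04 for the upstream kinases, scaffolds and polarity proteins, and the dotted line is the median of all genes at 0.95.

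A published signature of YAP target genes gave 9 enriched and 0 depleted of the 15 further targets that entered, with a median log2 ratio of 1.36. That is 60.0%, against 28.7% of all genes, but with TMM scaling 2 were enriched, which is 13.3% against 9.94%. IGFBP3, a secreted growth factor binding protein, had 395 Flag and 29 IgG counts (8.45, 5.80 to 12.8), and the membrane protein gene CRIM1 had 2551 Flag and 336 IgG counts (4.71, 4.20 to 5.30), and both were also called with TMM scaling. GADD45A, a growth arrest gene, had a ratio of 4.65 (3.35 to 6.61) and NT5E, which encodes the ecto-nucleotidase CD73, one of 4.48 (3.01 to 6.91). ARHGEF17 (1.36, 1.09 to 1.70) and NUAK2 (1.41, 1.12 to 1.79) were lowest and stood near AMOTL2. None of the further targets that entered reached the ratio of CYR61, which was itself named with its ratio known.

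Of the rest of the CCN family, NOV (CCN3) was enriched, with 81 Flag and 11 IgG counts (4.57, 2.42 to 9.52), though not with TMM scaling. WISP2 had 13 Flag and 7 IgG counts (1.15, 0.427 to 3.41), and WISP1 and WISP3 had 0 counts in both libraries. WISP2 was the one CCN mRNA of the 4 that entered with a ratio below the median gene.

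The genes nearest to 3 of the mRNAs were sought by their log2 CPM in both libraries, a likeness over 2 libraries only. RHOB, which encodes a small GTPase, was nearest to CYR61, with 15387 Flag and 487 IgG counts, at a distance of 0.234, followed by ACTN1, with fractional counts, and KHSRP. Nearest to CTGF were CREB1, RALA and UBALD2, at distances of 0.0878, 0.112 and 0.112. Nearest to YAP1 were PHLDA1 (with fractional counts, 0.0273), CDC27 (0.0595) and ANTXR1 (0.0610).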

How the data were processed

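The values deposited by the authors are expected counts, that is estimated counts of reads per gene without normalization, and TPM, which divide by effective length, per the file headers. Both follow the gene-level layout of RSEM, and the mean lengths come from the same tables. Per the submitters' processing notes the tools were RSEM and STAR and the builds GRCh37 and hg19, with no versions stated. The annotation release, read filters and strand handling are not stated in these sources, so reads of a gene and an antisense partner cannot be told apart.

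Counts were rounded (86.5% of detected Flag and 89.4% of IgG values were whole within 0.01) and divided by the library totals of 5498124 (Flag) and 3412864 (IgG). Ratios have exact Clopper-Pearson intervals from the Flag share of both counts, and ratios of ratios exact conditional intervals (scipy 1.17.1). Calls were tested on simulated counts with counting error only, the model that the intervals assume. That checks the computation and not how the calls fare on real libraries. No p-value was computed. A count of 0 stands for at most 3 counts. TMM (edgeR 4.0.16) and median-of-ratios scaling (DESeq2 1.42.0) used the genes that entered.

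The 10 mRNAs and the lists were chosen with earlier results of these data known. Besides the 10 and MEX3A, the rule names, per list, up to 4 enriched and 4 depleted genes with the outermost bounds and the 2 lowest ratios, the paralogs compared, and the 3 genes nearest to CYR61, CTGF and YAP1. TMM-depleted genes and those with 0 counts were named after their values were seen. Promoter windows are RefSeq's.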

Additional observations from a re-analysis of the deposited data

How the results depend on the processing

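Of 120 ratios of single mRNAs listed under 14 alternatives, 110 had the same call, 6 lost and 4 gained one, and no enriched mRNA turned below 1. The share with the same call is no measure of robustness. The filters on counts, whole counts and gene type changed only which genes entered, so they could not move the call of an mRNA they kept. The fold thresholds and the wider interval left the ratios themselves unchanged. AMOTL2, which was not called, was 0.809 under TMM scaling and 0.800 under the median-of-ratios method. Enriched mRNAs of the 10 numbered 4 with TMM scaling, median-of-ratios scaling and a 4-fold threshold. Of all 10811 genes, 1075, 1040 and 924 were enriched under these settings. Where a count moved by over 1.5 times the values were as follows. TMM scaling gave 1075 enriched and 814 depleted genes and 9 enriched and 3 depleted other pathway genes. Median-of-ratios scaling gave 1040 and 840 genes, and 9 and 3 other pathway genes. Leaving mitochondrial and the 10 most abundant genes out of the totals gave 228 depleted genes. The authors' TPM gave 4780 enriched and 712 depleted genes at a pseudocount of 0.1 and 536 depleted genes at 1. No filter gave 218 depleted genes, the 1.5-fold threshold 298, and the 4-fold threshold 924 enriched and 24 depleted genes with 9 other pathway genes enriched. Summing overlapping genes added 1 Flag count (WWTR1-AS1) and moved no call. No paired analysis was possible because each group has 1 library. Depth limits ANKRD1 most, at 14 Flag and 3 IgG counts.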
